A study of Mus musculus with 8 samples.

Results

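The 10 genes described here encode lysosomal cathepsins (Ctsa, Ctsb, Ctsc, Ctsd, Ctsh, Ctsl, Ctss and Ctsz), the related lysosomal protease legumain (Lgmn) and cystatin C (Cst3), a secreted inhibitor of the cysteine proteases among them. They were chosen by gene symbol from 35583 genes in the deposited count table, and all 10 were found there once. Their RNA was measured by bulk sequencing in hypothalamic microglia, the resident macrophages of the brain. The mice were young, their genotype is given as wild-type, and they had received plasma protein carrying a dye 20 hours earlier. The sort gave plasma-positive microglia and plasma-negative microglia, so both groups came from injected animals, and the labels set them apart only by whether the cells were positive for plasma. Each group had 4 libraries. The labels do not say whether each library came from its own animal, how many animals were pooled or which gates were used, so the p-values below measure only the spread between libraries, which may be technical. The comparison asks how RNA of microglia that carried the labelled protein differed from that of microglia that did not.

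Cathepsins digest proteins that reach the lysosome by endocytosis, phagocytosis or autophagy. Most belong to the papain family of cysteine proteases, while cathepsin D is an aspartic protease and cathepsin A a serine carboxypeptidase. They are made as inactive precursors that are cut to their active form in acidic compartments, a step in which legumain takes part for several of them. Cystatin C binds papain-family enzymes and, at a separate site, legumain. Microglia express cathepsin S and cystatin C strongly among the cells of the brain.

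Several of these genes carry known regulatory letters near their start, and the short stretches below show them. The factors TFEB and TFE3, which drive many lysosomal genes, bind a core of CACGTG. PU.1, the lineage factor of macrophages and microglia, binds purine-rich sites such as GAGGAAGT. Both were searched on both strands, in RefSeq windows from 250 bases before to 50 bases after each gene start (GRCm38.p6). No window of these genes held both motifs, so no matches overlapped. Of the 10 genes, 8 had a window, and some had more than 1 start, giving 10 windows. Ctsb and Ctsh had none. CACGTG was found in windows of 4 genes (Ctsa, Ctsd, Ctsl and Lgmn), against 7.15% of all 32851 windows. GAGGAAGT was found in those of Ctss and Ctsc, against 3.20% of all windows. The windows of Cst3 and Ctsz held neither. Capitals mark the motif, and each stretch is written 5′ to 3′ along the gene.
Ctsd, chr7:142387903-142387942, minus strand, CACGTG from 98 bases before the start: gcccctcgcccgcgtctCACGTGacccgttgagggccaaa
Ctsa, chr2:164833744-164833783, plus strand, CACGTG from 12 bases before the second of its starts and again just after it: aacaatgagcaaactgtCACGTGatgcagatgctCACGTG
Lgmn, chr12:102439119-102439158, minus strand, CACGTG from 49 bases before the second of its starts: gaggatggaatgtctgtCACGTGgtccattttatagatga
Ctsl, chr13:64370734-64370770, minus strand, CACGTG from 236 bases before the start: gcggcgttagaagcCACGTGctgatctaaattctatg
Ctss, chr3:95526767-95526805, plus strand, GAGGAAGT on the other strand from 2 bases before the start: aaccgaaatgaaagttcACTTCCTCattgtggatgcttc
Ctsc, chr7:88277917-88277958, plus strand, GAGGAAGT on the other strand from 151 bases before the start: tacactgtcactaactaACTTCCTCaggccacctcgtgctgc
The match of these letters is a description of the windows. Starts here are those of RefSeq, and they can differ from the gene coordinates given below. The CACGTG stretches printed for Ctsd, Ctsa, Lgmn and Ctsl all lie inside those coordinates. Ctsd held a further CACGTG from 245 bases before its start, outside those coordinates. The genes called higher in plasma-positive cells include Ctsd and Lgmn with CACGTG, Ctss with GAGGAAGT, and Cst3 with neither. Of the genes that were not called, Ctsa and Ctsl held CACGTG, Ctsc held GAGGAAGT and Ctsz held neither.

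Libraries held between 2963094 and 21422738 counts, the smallest being plasma-negative replicate 4. That library was the highest of its group for Ctsa, Ctsc, Ctsd, Ctsl, Ctss, Lgmn and Cst3 and the lowest for Ctsz, so values without it are given where a call of edgeR's uncorrected fits differs. Over all 13277 genes tested with edgeR, 1831 (13.8%) had an unadjusted p under 0.05 and 187 were called at a Benjamini-Hochberg adjusted p under 0.05, 112 higher and 75 lower in plasma-positive microglia. DESeq2 called 6.49% of the 14863 genes it tested. The split of calls was 64 higher and 163 lower in edgeR with library totals only, and 388 higher and 59 lower with limma on log2(RPKM + 1). It was 47 and 19 after a correction of each library for trends with exon length and GC content. The gene counts were 68.9% to 74.6% of the total behind the deposited RPKM in plasma-negative libraries and 81.4% to 84.2% in plasma-positive ones, which raises RPKM values of the latter by comparison with CPM (counts scaled to a common library total with TMM factors). Microglial markers summed to between 44018 and 49537 CPM in plasma-negative and between 48514 and 51896 CPM in plasma-positive libraries. Of the 8, edgeR called 2, both higher and both also called after the length and GC correction, namely Csf1r (log2 change 0.28, adjusted p = 0.00489) and Olfml3 (0.37, adjusted p = 0.00647). Cx3cr1 was lower in all plasma-positive libraries, at -0.11, and was not called (edgeR, adjusted p = 0.232). The astrocyte list, which matters because astrocytes also make cystatin C, summed to at most 327 and 298 CPM, most of it Slc1a3, at a mean of 238 CPM in plasma-negative and 185 CPM in plasma-positive libraries. Means of the other astrocyte genes were low, with Gfap at 1.72 and 1.59 CPM, Aqp4 at 2.83 and 2.35, Slc1a2 at 3.60 and 22.6, Aldoc at 5.79 and 17.6, Gja1 at 0.67 and 3.48 and Aldh1l1 at 0 and 2.61. Of the 7, 4 were tested and edgeR called 0, with 3 at an unadjusted p under 0.05 and 1 called by DESeq2. Border macrophage markers summed to between 0.88 and 3.61 CPM in plasma-negative and between 1.76 and 16.5 CPM in plasma-positive libraries. Cd163, Lyve1 and F13a1 were at 0 in all libraries. Mrc1, the 1 gene of this list that was tested, averaged 1.06 and 7.66 CPM, with overlapping ranges. Its log2 change was 2.93 (edgeR, adjusted p = 0.429). Of the monocyte and neutrophil list, Lyz2 was higher in all 4 plasma-positive libraries, at means of 121 and 286 CPM (log2 change 1.24; edgeR, adjusted p = 0.00571), and was also called after the length and GC correction. Plasma-positive replicate 3 alone held S100a8 at 299.9 CPM and Ngp at 430.4 CPM, with S100a9 at 170.8 and Camp at 57.6. Ccr2 went the other way on average, at means of 4.25 and 0.48 CPM, with overlapping ranges. Ly6c2 reached at most 3.05 CPM and Plac8 at most 0.17 CPM. Of the 8 genes of this list, only Lyz2 was tested. Oligodendrocyte markers summed to between 157 and 230 CPM in plasma-negative and between 222 and 514 CPM in plasma-positive libraries. Of the 6, 5 were tested, all with positive estimates, and edgeR called 0. Cnp, at 98.9 and 161 CPM, did not overlap between the groups (edgeR, adjusted p = 0.113). Mog, which was not tested, averaged 2.22 and 0.19 CPM. In plasma-positive replicate 2, neuron markers summed to 278 CPM. The part of these transcripts in the results was not tested. Leaving out plasma-positive replicate 2 or 3, edgeR with TMM scaling and no correction called Ctss, Ctsb, Ctsd and Cst3, and the libraries that remained still included the higher Lyz2 and Cnp.

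All 10 genes had higher estimates in plasma-positive microglia, and 5 of them were called by edgeR: Ctss, Ctsb, Ctsd, Lgmn and Cst3. Of all genes tested, 1.41% were called and 0.844% were called higher. The median log2 change was 0.32 over the 10 genes and 0.01 over all tested genes. For 9 of the 10, all 4 plasma-positive libraries lay above all 4 plasma-negative ones on the log2 CPM scale, against 5.68% of all genes tested. Ctsc was the exception. These shares are not a test of the set, because the 10 genes were chosen with earlier results of these data known. All 10 also averaged at least 1162.6 CPM in both groups, while 1670 of the 13277 tested genes averaged at least 100 CPM. Estimates ran from a log2 change of 0.17 for Ctsz to 0.59 for Ctss. In bulk RNA, a different make-up of the sorted cells and a different amount of RNA per cell cannot be told apart.

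Cst3 (ENSMUSG00000027447, chromosome 2, 148871722 to 148875692, mm10) was the most abundant gene of the whole table per length in both groups. Its level was 18439 ± 1399 RPKM (the authors' read density per exon length and library size; SD, n = 4) in plasma-negative and 27326 ± 1182 RPKM in plasma-positive microglia. It took 3.31% ± 0.14 and 4.16% ± 0.21 of all counts. In CPM, plasma-negative replicates 1 to 4 were at 30597, 30226, 32392 and 34438. Plasma-positive replicates were at 45133, 41666, 40856 and 45927 CPM, so the lowest plasma-positive library stood clear of the highest plasma-negative one. The log2 change was 0.44 with an SE of 0.05 (edgeR, adjusted p = 0.00162). After correction for length and GC it was 0.17 and was no longer called (edgeR, adjusted p = 0.36).

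Of the 6 papain-family cathepsins, edgeR called Ctss and Ctsb. Cathepsin S keeps its activity at neutral pH and cuts the invariant chain of MHC class II in antigen-presenting cells. Ctss (ENSMUSG00000038642, chromosome 3, 95526786 to 95556403) was at 6569, 6942, 6355 and 7799 CPM in plasma-negative replicates 1 to 4. Plasma-positive replicates were at 10596, 10251, 9689 and 11060 CPM. The groups were well separated, with plasma-negative replicate 4 the highest of its group. The log2 change was 0.59 with an SE of 0.06 (edgeR, adjusted p = 0.00162). The length and GC correction gave 0.43, still called (edgeR, adjusted p = 0.0218).

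Ctsb rose as well. Cathepsin B is an endopeptidase that also removes dipeptides from the carboxyl end of proteins. Ctsb (ENSMUSG00000021939, chromosome 14, 63122462 to 63145923) was at 3017, 3129, 2889 and 3056 CPM in plasma-negative and at 3770, 4352, 3932 and 4296 CPM in plasma-positive replicates. The plasma-negative libraries were close together and all below the plasma-positive ones. Its log2 change was 0.44 with an SE of 0.06 (edgeR, adjusted p = 0.00489). After the length and GC correction it was 0.45 (edgeR, adjusted p = 0.0118).

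Ctsl and Ctsc had estimates about as large but were not called. Cathepsin L is a broad endopeptidase of the lysosome, and cathepsin C removes dipeptides from the amino end and activates granule proteases of leukocytes. Ctsl (ENSMUSG00000021477, chromosome 13, 64359337 to 64370890) was at 1050, 1250, 964 and 1386 CPM in plasma-negative and 1564, 1638, 1442 and 1682 CPM in plasma-positive replicates. Its groups did not overlap, and its log2 change was 0.44 with an SE of 0.11 (edgeR, adjusted p = 0.0645). It was called, at 0.55, with the length and GC correction (edgeR, adjusted p = 0.0471). Ctsc (ENSMUSG00000030560, chromosome 7, 88278085 to 88310888) was at 1202, 1242, 1145 and 1665 CPM in plasma-negative replicates, the last of these above the 1634 CPM of plasma-positive replicate 2. The other plasma-positive replicates were at 1729, 1696 and 1805 CPM. The log2 change of Ctsc was 0.39 with an SE of 0.11 (edgeR, adjusted p = 0.105). It was 0.48 after the length and GC correction (edgeR, adjusted p = 0.065). Leaving out plasma-negative replicate 4, Ctsl was called at 0.54 and Ctsc at 0.52 (edgeR, adjusted p = 0.0265 and 0.00329).

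The remaining papain-family members differed least. Cathepsin H is an aminopeptidase and cathepsin Z a carboxypeptidase that trims single residues. Ctsh (ENSMUSG00000032359, chromosome 9, 90054152 to 90076089) was between 1248 and 1367 CPM in plasma-negative and between 1510 and 1601 CPM in plasma-positive libraries, a log2 change of 0.24 (edgeR, adjusted p = 0.0645). Ctsz (ENSMUSG00000016256, chromosome 2, 174427493 to 174439039) was between 2380 and 2677 CPM and between 2843 and 3026 CPM, a log2 change of 0.17 (edgeR, adjusted p = 0.163). Neither pair of ranges overlapped. After the length and GC correction the estimate for Ctsz turned to -0.09 (edgeR, adjusted p = 0.582). That for Ctsh was 0.14 (edgeR, adjusted p = 0.439), and 0.07 when corrected by principal transcript.

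Outside the papain family, cathepsin D and legumain were called at smaller changes. Ctsd (ENSMUSG00000007891, chromosome 7, 142375911 to 142388038) was at 12277, 12467, 12333 and 13034 CPM in plasma-negative and 14958, 15042, 14215 and 15432 CPM in plasma-positive replicates. The log2 change was 0.25 with an SE of 0.03 (edgeR, adjusted p = 0.00571). Of its exon length, 34.4% also belongs to Gm49369, a gene on the same strand with 16101 to 121350 counts, so these reads cannot be assigned to Ctsd alone. Lgmn (ENSMUSG00000021190, chromosome 12, 102394084 to 102439813) was at 8367, 8588, 8491 and 9510 CPM in plasma-negative and 10187, 9601, 10592 and 10281 CPM in plasma-positive replicates. Its highest plasma-negative library, replicate 4, came close to its lowest plasma-positive one, and the log2 change was 0.22 with an SE of 0.05 (edgeR, adjusted p = 0.0456). The call of Lgmn was lost whichever library was omitted except plasma-negative replicate 4, without which it was called at 0.26 (edgeR, adjusted p = 0.00965). Over those 8 fits its adjusted p reached at most 0.12. After the length and GC correction, Ctsd was at 0.04 and Lgmn at 0.02, and neither was called (edgeR, adjusted p = 0.86 and 0.943).

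Ctsa encodes a carboxypeptidase that also protects the enzymes made from Glb1 and Neu1 in a complex. Ctsa (ENSMUSG00000017760, chromosome 2, 164832873 to 164841032) was between 1069 and 1354 CPM in plasma-negative and between 1442 and 1511 CPM in plasma-positive libraries. Its log2 change was 0.22 with an SE of 0.08 (edgeR, adjusted p = 0.233). The length and GC correction gave 0.099 (edgeR, adjusted p = 0.719). Without plasma-negative replicate 2, the lowest library, it was 0.15 (edgeR, adjusted p = 0.351).

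**Figure D1:**
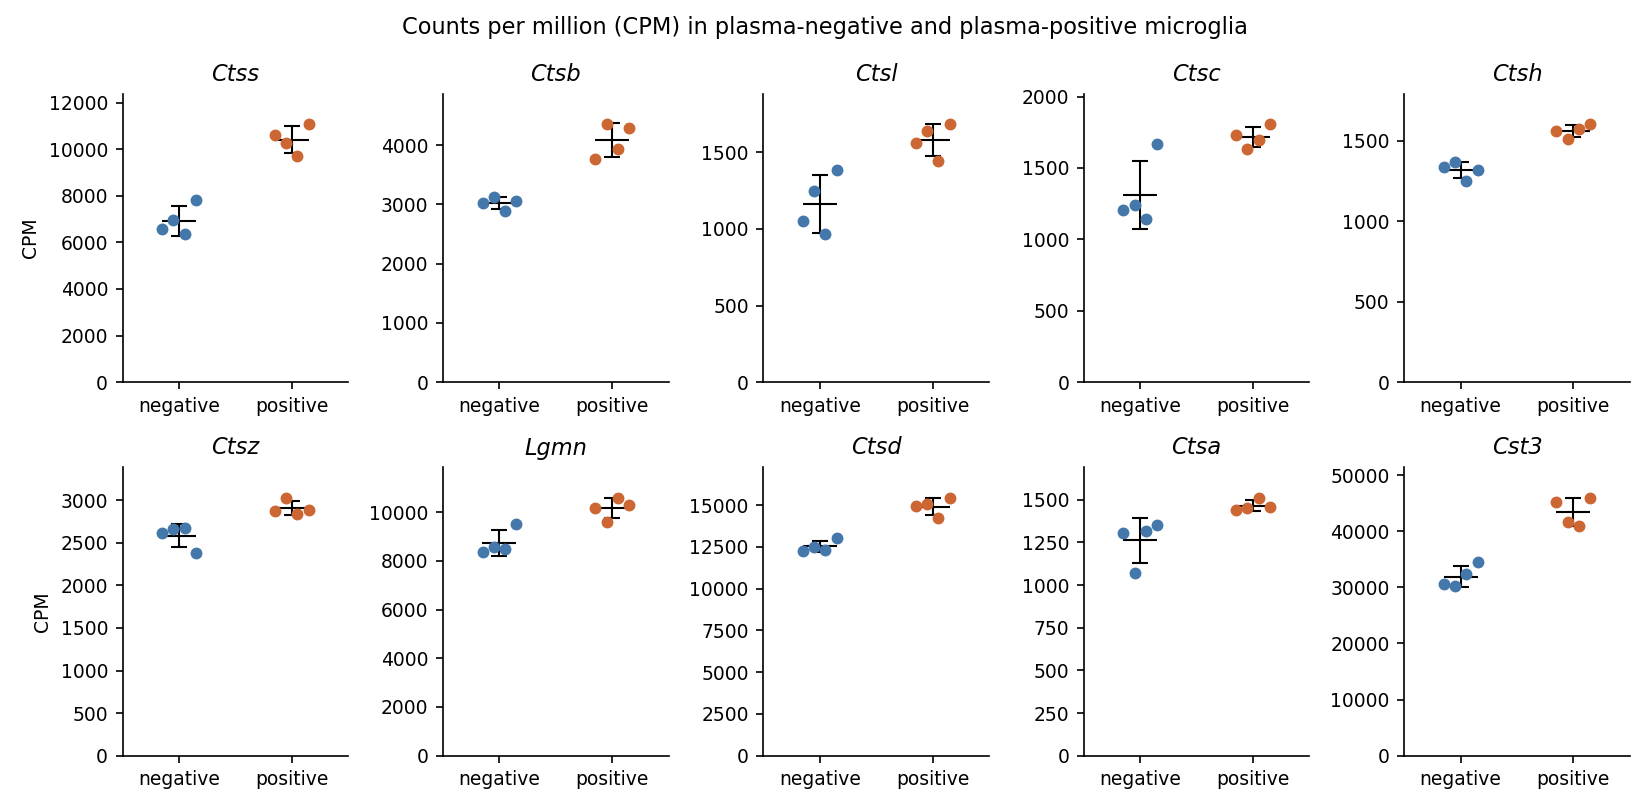
CPM (linear axes from 0) of the 10 genes in the 4 plasma-negative (blue) and 4 plasma-positive (orange) libraries; each point is 1 library, the horizontal mark the mean and the bar the SD. The plasma-positive points stand above all plasma-negative points except for Ctsc, where plasma-negative replicate 4 at 1665 CPM exceeds the lowest plasma-positive library.

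How the values were scaled moved the size of these changes. With limma on log2(RPKM + 1), 9 of the 10 genes were called, all but Ctsa, against 3.37% of all genes, and Ctss was at 0.72 and Cst3 at 0.57. With library totals only the estimates were smaller, at 0.48 for Ctss, 0.33 for Cst3, 0.32 for Ctsb, 0.33 for Ctsl and 0.28 for Ctsc. They were 0.14 for Ctsd, 0.13 for Ctsh, 0.10 for Lgmn, 0.10 for Ctsa and 0.054 for Ctsz, and 4 genes were called, Ctss, Cst3, Ctsb and Ctsd. With the length and GC correction 3 were called, namely Ctss, Ctsb and Ctsl, against 0.354% of all genes called higher in that fit. Ctss and Ctsb were called in all 14 alternative fits and in all 8 fits without a library. Cst3 and Ctsd were called in 11 of the 14 and in all 8, the exceptions being the 3 fits with a length and GC correction. Lgmn was called in 6 of the 14 and in 1 of the 8. Of the genes not called by edgeR with TMM scaling, Ctsl was called in 9 of the 14, Ctsh in 5, Ctsc in 4, Ctsz in 2 and Ctsa in 0. Leaving out a library, Ctsl and Ctsc were each called in 1 of the 8 and Ctsh, Ctsz and Ctsa in 0. The Lgmn call was lost in the 3 corrected fits and also, among others, with RLE size factors, library totals only, no filter and thinning to the smallest library (edgeR, adjusted p between 0.0516 and 0.198).

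**Figure D2:**
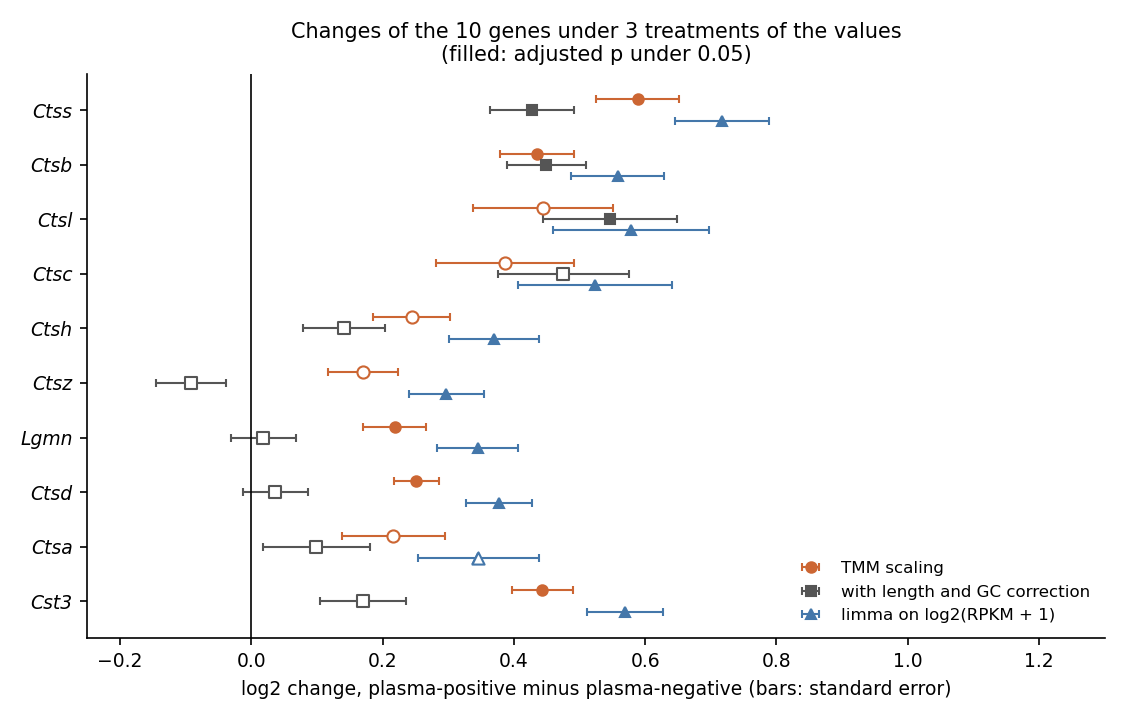
Log2 change of each gene (horizontal axis, plasma-positive minus plasma-negative; bars are standard errors) by edgeR with TMM scaling, by edgeR after the length and GC correction, and by limma on log2(RPKM + 1); filled symbols passed an adjusted p of 0.05. Ctss and Ctsb are filled in all 3, while Cst3, Ctsd and Lgmn move toward 0 after the correction.

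Per length, the 10 genes covered a wide range of levels. In plasma-negative microglia Cst3 was followed by Ctsd at 3897 ± 170 RPKM, Ctss at 3727 ± 400, Lgmn at 2752 ± 209 and Ctsz at 1309 ± 49 (SD, n = 4). Ctsb came next at 365 ± 14 RPKM, then Ctsh at 214 ± 8.8, Ctsa at 196 ± 23, Ctsc at 166 ± 33 and Ctsl at 131 ± 23. The ranges of Ctsd and Ctss overlapped there, as did those of Ctsh and Ctsa, Ctsa and Ctsc, and Ctsc and Ctsl. In plasma-positive microglia Ctss, at 6105 ± 256 RPKM, lay above Ctsd, at 5059 ± 145 RPKM, with no overlap. The other genes kept their order, and only the ranges of Ctsa and Ctsc overlapped. The deposited RPKM divides by the merged length of all annotated exons, which is 5808 bases for Ctsc and 4499 for Ctsh, while their principal transcripts have 2493 and 1617 bases, so the order of the lower genes depends on the length used.

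The balance of protease to inhibitor transcripts was measured within each library as protease RPKM per Cst3 RPKM, which does not depend on library scaling. The 7 cysteine proteases (the papain-family members and Lgmn) summed to 0.473, 0.498, 0.441 and 0.470 per Cst3 in plasma-negative replicates 1 to 4. They summed to 0.440, 0.467, 0.470 and 0.447 in plasma-positive replicates. The groups overlapped, with a difference of mean log2 values of -0.04 against a pooled SD of 0.06. That difference depended on what was summed and how, at -0.21 without Ctss, 0.032 without Lgmn and 0.058 with the length and GC correction. Summed over all 9 proteases, the level per Cst3 averaged 0.693 ± 0.030 over the plasma-negative and 0.650 ± 0.022 over the plasma-positive libraries (SD, n = 4), a log2 difference of -0.09, and the groups overlapped. The summed RPKM of the 7 cysteine proteases averaged 8664 ± 625 over the plasma-negative group, against 12450 ± 167 over the plasma-positive group. Of the 7, edgeR with TMM scaling called only Ctss, Ctsb and Lgmn. Cst3 was also higher in RPKM, and neither quantity overlapped between groups. RPKM raises plasma-positive values by comparison with CPM, as stated above, and these summed levels carry that shift. No p is given for these sums.

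Gene by gene, 2 of the 9 proteases fell relative to Cst3 and 0 rose by the test. Each gene was tested as a ratio to Cst3 with edgeR over 13276 genes, of which 8.58% were called lower and 0.196% higher, since the median gene changed by -0.44 on the log2 scale against Cst3. Ctsd went from 21.6, 22.2, 20.5 and 20.4 RPKM per 100 RPKM of Cst3 in plasma-negative replicates to 17.8, 19.4, 18.7 and 18.1 in plasma-positive ones. These groups did not overlap, and the ratio fell by 0.19 on the log2 scale with an SE of 0.04 (edgeR, adjusted p = 0.014). Lgmn was between 14.3 and 15.5 per 100 of Cst3 in plasma-negative replicates and at 12.3, 12.6, 14.1 and 12.2 in plasma-positive ones, again with no overlap. Its ratio fell by 0.22 with an SE of 0.05 (edgeR, adjusted p = 0.0196). The Lgmn call was lost without plasma-negative replicate 1 or 2 or plasma-positive replicate 1, 2 or 4 (edgeR, adjusted p between 0.0514 and 0.0669). The Ctsd call was lost only without plasma-positive replicate 4 (edgeR, adjusted p = 0.0511). After the length and GC correction the ratios of Lgmn and Ctsd were at -0.15 and -0.14, and neither was called (edgeR, adjusted p = 0.235 and 0.306).

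The ratio of Ctss to Cst3 was at 20.0, 21.4, 18.3 and 21.1 per 100 of Cst3 in plasma-negative and 21.9, 22.9, 22.1 and 22.5 in plasma-positive replicates, which did not overlap. The log2 change of the ratio was 0.15, with a 95% interval from 0.04 to 0.25 (edgeR, adjusted p = 0.0965). Corrected for length and GC it was 0.26 and was called (edgeR, adjusted p = 0.0493). Ctsb, Ctsl and Ctsc had log2 changes of the ratio of -0.01 (95% interval -0.17 to 0.15), 0.00 (-0.22 to 0.22) and -0.05 (-0.24 to 0.14). Their estimates of the ratio changed sign when single libraries were left out. The length and GC correction gave higher estimates than for Ctss, with Ctsl at 0.38, Ctsc at 0.31 and Ctsb at 0.27, none of them called (edgeR, adjusted p = 0.0943, 0.113 and 0.194). Corrected by principal transcript, Ctsl was at 0.59 and was called (edgeR, adjusted p = 0.0275), as was Ctss at 0.34 (edgeR, adjusted p = 0.0162). Ctsz, Ctsa and Ctsh had -0.28, -0.22 and -0.20 and were not called (edgeR, adjusted p = 0.0538, 0.11 and 0.128), and the ranges of all 3 overlapped. Ctsz was called, at -0.35, without plasma-negative replicate 4 (edgeR, adjusted p = 0.012). It was also called with a minimum mean count of 50 (edgeR, adjusted p = 0.0405) and with limma on the RPKM ratio (adjusted p = 0.0393).

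**Figure D3:**
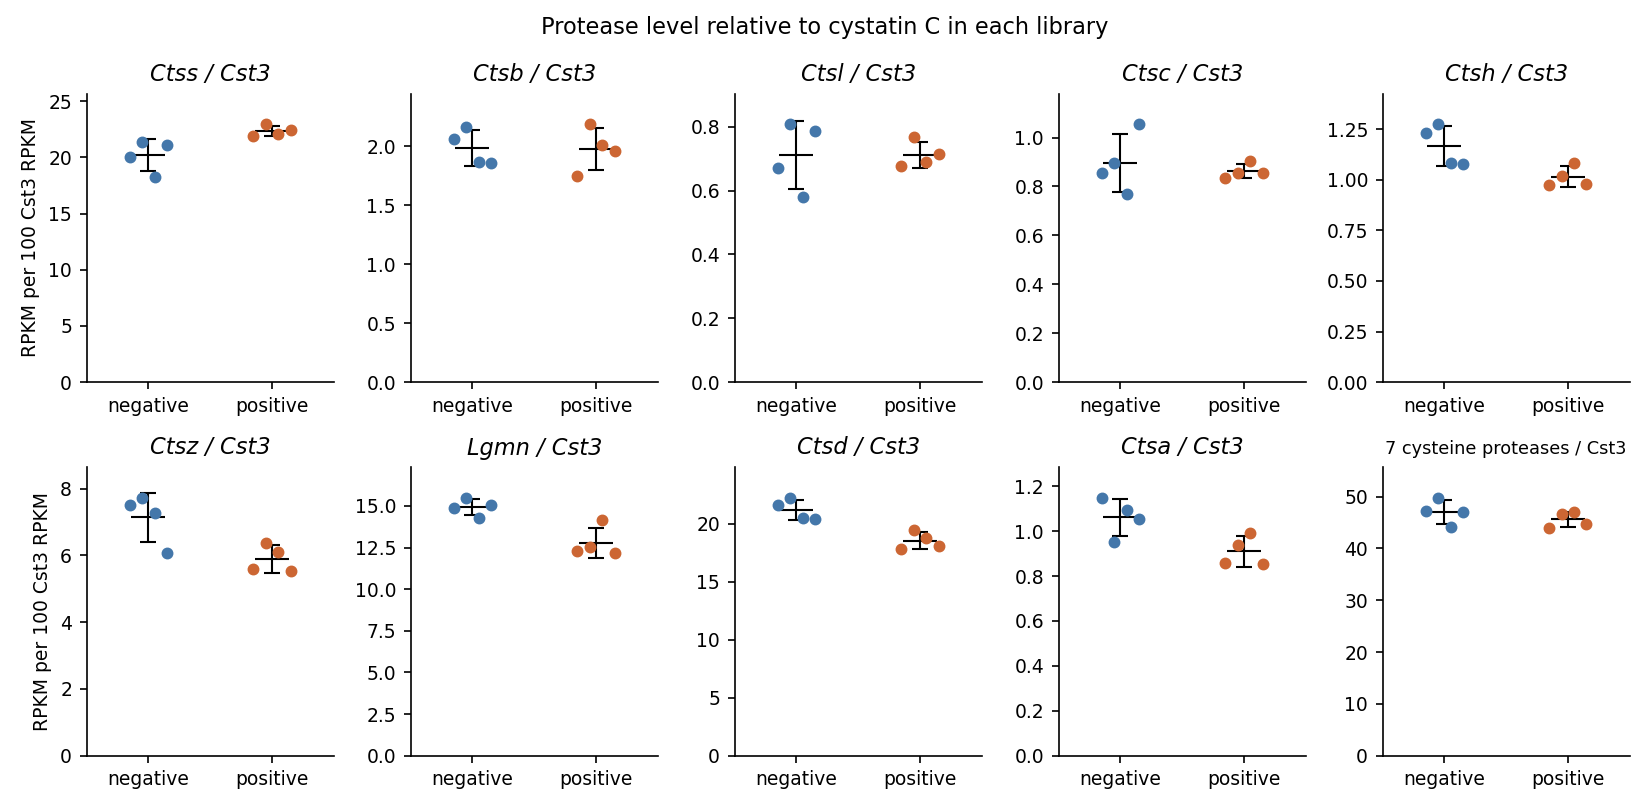
RPKM of each protease, and of the sum of 7 cysteine proteases, per 100 RPKM of Cst3 (linear axes from 0) in plasma-negative (blue) and plasma-positive (orange) libraries; points are libraries, marks are means and bars SDs. Ctsd and Lgmn lie lower and Ctss higher in all plasma-positive libraries, while the summed ratio overlaps between the groups.

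As a share of the summed RPKM of the 9 proteases, Ctss made up 29.2% ± 1.3 in plasma-negative and 34.4% ± 1.0 in plasma-positive microglia (SD, n = 4). Ctsd went from 30.6% ± 0.6 to 28.5% ± 0.4 and Lgmn from 21.6% ± 0.4 to 19.7% ± 1.1. The groups did not overlap for these 3 genes and overlapped for the other 6. Shares of one sum are not independent of each other, and they carry no test.

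**Figure D4:**
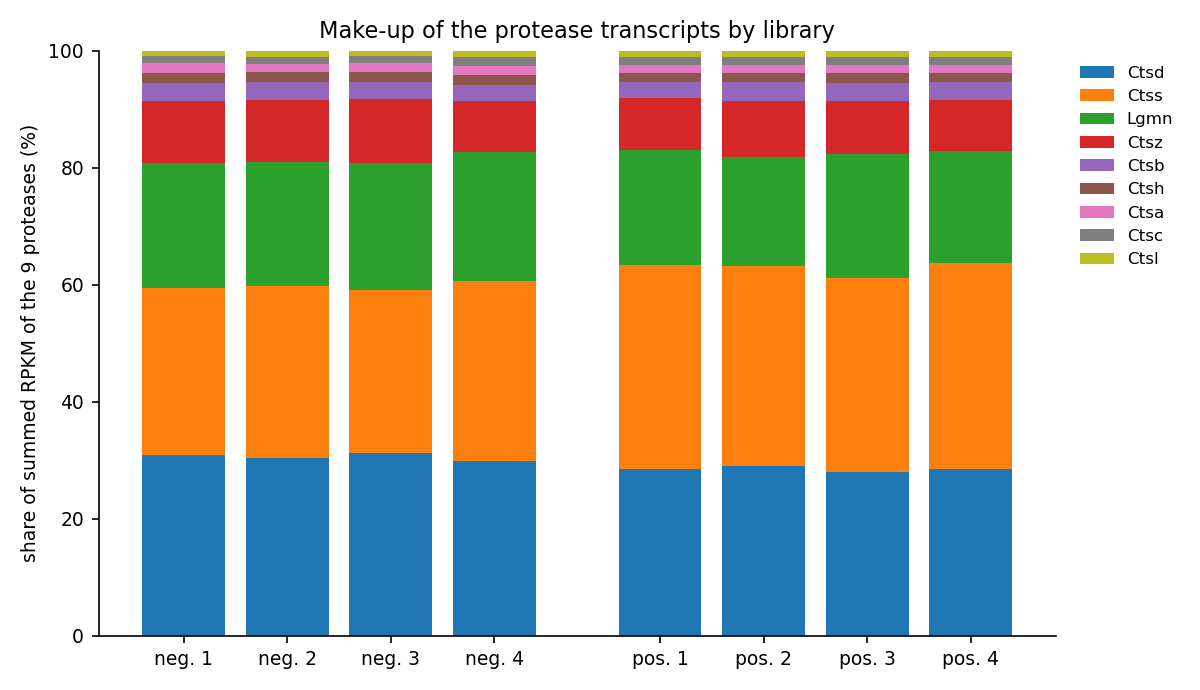
Share of each protease in the summed RPKM of the 9 proteases (percent, stacked bars from 0 to 100) for the 4 plasma-negative (neg.) and 4 plasma-positive (pos.) libraries. The Ctss segment is between 27.8% and 30.8% in plasma-negative and between 33.1% and 35.3% in plasma-positive libraries.

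Other genes of the same system were read from the same fit. Of 14 further cathepsin genes, 4 were tested and edgeR called 0, with 1 at an unadjusted p under 0.05 (13.8% of all genes) and 1 called by DESeq2 (6.49% of all genes). The 10 with 0 counts in all libraries included Ctsk, the collagen-degrading cathepsin of osteoclasts, and Ctsg, a granule protease of neutrophils. The most abundant of the others were Ctsf, at 304 ± 29 and 398 ± 15 CPM (log2 change 0.39; edgeR, adjusted p = 0.081), and Ctso, at 224 ± 18 and 212 ± 39 CPM. Of 14 further cystatins, stefins and related inhibitors, 3 were tested and edgeR called 0, with 1 at an unadjusted p under 0.05 and 0 called by DESeq2. Cstb, the intracellular stefin B, was at 28.8 ± 10.9 and 43.6 ± 13.3 CPM, far below Cst3, and Ctla2b was at 9.56 ± 4.55 and 19.4 ± 3.9 CPM.

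Among 6 other lysosomal peptidases, 5 were tested and edgeR called 0, with 3 at an unadjusted p under 0.05 (13.8% of all genes) and 1 called by DESeq2. Tpp1, which removes tripeptides, was at 352 ± 55 and 490 ± 52 CPM (log2 change 0.48; edgeR, adjusted p = 0.0849), and Scpep1 at 165 ± 18 and 206 ± 22 CPM. Of 7 partners and substrates, all tested, 2 had an unadjusted p under 0.05 and DESeq2 called 2. By edgeR 2 were called, both higher, against 0.844% of all genes called higher. Psap, the precursor of the saposins, which cathepsin D cuts, stood at 3606 ± 108 and 4874 ± 151 CPM and rose by 0.43 on the log2 scale (edgeR, adjusted p = 0.00162). Grn, the precursor of granulins that lysosomal proteases release, stood at 3046 ± 108 and 3784 ± 94 CPM and rose by 0.31 on the log2 scale (edgeR, adjusted p = 0.00801). Neither was called with the length and GC correction.

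Of 12 genes for delivery to the lysosome and its transcription factors, 11 were tested and edgeR called 0, with 1 at an unadjusted p under 0.05 (13.8% of all genes) and 1 called by DESeq2 (6.49% of all genes). Of the 11 estimates, 6 were above 0. M6pr, a mannose 6-phosphate receptor that carries cathepsin precursors, was at 277 ± 39 and 391 ± 19 CPM (log2 change 0.50; edgeR, adjusted p = 0.0558). Nagpa, which uncovers the mannose 6-phosphate signal, was at 226 ± 24 and 261 ± 37 CPM. Of 31 other lysosomal hydrolases and membrane proteins, 30 were tested, 28 of them with estimates above 0. At an unadjusted p under 0.05 were 12 (13.8% of all genes), and DESeq2 called 8 (6.49% of all genes). By edgeR 5 were called, all higher, against 0.844% of all genes called higher: Man2b1, Npc2, Lamp1, Cd63 and Laptm5. Their log2 changes were 0.31, 0.55, 0.45, 0.64 and 0.31 (edgeR, adjusted p between 0.00801 and 0.0452), and of these Man2b1 and Npc2 were also called after the length and GC correction. The median over the 30 was 0.26, beside 0.32 for the 10 genes described here.

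Likeness of pattern was measured as the root mean square difference of log2 CPM, each gene centred on its own mean, over the 8 libraries and 1670 genes with at least 100 CPM. Nearest to Cst3 were Fcer1g, an Fc receptor chain, at 0.0455, Eef1a1, a translation elongation factor, at 0.0474 and the complement gene C1qb at 0.0498. Nearest to Ctss were Tmsb4x at 0.0523, Eef1a1 at 0.0621 and Fcer1g at 0.0859. Counts of Eef1a1 and Tmsb4x are uncertain because both have near-identical copies in the genome. Of the 9 proteases Ctss was nearest to Cst3, at 0.0987, and Ctsz farthest, at 0.178. Among the genes compared, Ctss held place 47 and Ctsz place 343 by nearness to Cst3.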

How the data were processed

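Libraries were made by Smart-seq2 per the labels' protocols, a method without molecular identifiers. The authors deposited whole-number read counts per gene and RPKM values for the same libraries, and per the file headers both come from alignments restricted to top hits. The submitters' processing notes name bcl2fastq, Trim Galore, STAR, HTSeq and build mm10. Strand and multi-mapping reads are not given in the sources used here. The tables' 16 columns of standard deviations were not used. RPKM equalled counts over merged exon length in GENCODE M21 within 1% for over 99% of genes with at least 200 counts. Groups and replicate numbers came from sample titles.

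Counts were tested with edgeR 4.0.16 (R 4.3.3): TMM factors, default filter, quasi-likelihood test of group, Benjamini-Hochberg adjustment over all tested genes. SEs are the change over the square root of F. Ratios to Cst3 used log Cst3 counts as the offset over all other genes. The length and GC correction used per-library loess (span 0.3) on merged exon length and the GC content of the longest transcript as an offset. Other alternatives were limma 3.58.1, DESeq2 1.42.0, other scalings and filters, thinning, the replicate number as a block, and leaving out each library. The fits were tested on simulated counts. Principal transcript lengths (APPRIS tags in GENCODE M21) were added after seeing the data. Members and lists were chosen with earlier results of these data known. The rule named all 10 members, up to 6 called genes of each other list or else its 2 most abundant, 3 nearest patterns each for Cst3 and Ctss, and genes that overlap a member. Same-numbered libraries correlated across genes, as deviations from group means, at 0.0109 to 0.0315. The numbers were not taken as pairs, but low correlations across genes cannot exclude pairing. Blocking on these numbers in edgeR lowered the SE for every member except Ctsh. The SE went from 0.063 to 0.038 for Ctss, from 0.107 to 0.073 for Ctsl and from 0.047 to 0.033 for Cst3. For Ctsh it went from 0.059 to 0.062.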

Additional observations from a re-analysis of the deposited data

Results flagged for a closer look

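Of 40 groups of 4 libraries examined for the 10 genes, their ratios to Cst3 and the summed ratio, 1 held a library far from the others, where chance gives about 1 in 20 groups. Ctsa stood at 1069 CPM in plasma-negative replicate 2, against 1308 CPM in the nearest other plasma-negative library.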

How the results depend on the processing

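All 10 genes kept a positive estimate in the 14 alternative fits and the 8 fits without a library, except Ctsz, which was at -0.092 under the length and GC correction, -0.092 under that correction and the replicate block, and -0.074 under the correction by principal transcript. The number of the 10 genes called, 5, was 8 with DESeq2 and with limma-voom, 9 with limma on log2(RPKM + 1) and on log2(RPKM + 0.1), 3 with the length and GC correction by merged exons or principal transcript, and 2 with that correction and the replicate block. It was 5 with the replicate block alone, with Ctsl in place of Lgmn, and likewise when all libraries were thinned to the smallest total. Over all genes, the 187 calls of 13277 became 965 of 14863 with DESeq2, 261 of 13277 with limma-voom and 227 of 11145 after thinning. They were 447 and 432 with limma on RPKM at a pseudocount of 1 and 0.1, and 74 with the replicate block. With either length and GC correction they were 66, and with that correction and the block 7. They ranged from 66 without plasma-negative replicate 3 to 203 without plasma-negative replicate 4. The median of all genes, 0.01, was -0.11 with library totals only and 0.11 and 0.16 with log2(RPKM + 1) and log2(RPKM + 0.1). Of the ratios to Cst3, 2 were called, both lower, where 1165 of 13276 genes were called. With the length and GC correction 1 was called, Ctss, which was higher, where 41 of 13276 genes were called. With a library left out, 0 to 3 were called. It was 0 without plasma-positive replicate 4 (607 of 13898 genes) and 3 without plasma-negative replicate 4 (1225 of 13986 genes). The replicate block called 2, with Ctsz in place of Lgmn (740 of 13276 genes). The uncalled ratio of Ctsb turned to 0.27 and 0.36 with the correction by merged exons and by principal transcript, that of Ctsc to 0.31 and 0.26, that of Ctsl from 0.00 to 0.38 and 0.59, called only by principal transcript, and that of Ctsa to 0.023 by principal transcript. With a library left out these ratios ranged from -0.061 to 0.046 for Ctsb, -0.12 to 0.037 for Ctsc and -0.083 to 0.069 for Ctsl. The summed balance, -0.04, became -0.21 without Ctss, 0.032 without Lgmn and 0.058 with the length and GC correction. Apart from these constructions, the cause of each shift was not tested.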

Other observations

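Of the 10 genes, 7 in plasma-negative and 6 in plasma-positive microglia were among the 100 highest genes per length, and 4 of these (Cst3, Ctsd, Ctss and Lgmn) were among the 10 highest in both groups. The 10 genes together took 7.34% ± 0.19 of the counts of plasma-negative libraries and 8.83% ± 0.29 of those of plasma-positive ones (SD, n = 4), with no overlap. Ctss stood at place 7 of the table per length in plasma-negative and place 4 in plasma-positive microglia, while Ctsd stood at place 6 in both.

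Genes whose exons overlap a member on the other strand had fewer counts than that member. Gm47123, antisense to Ctsl and wholly inside its exons, had 26 to 253 counts, against 4120 to 32222 for Ctsl. Pltp, whose exons overlap 10.5% of those of Ctsa on the other strand, had 68 to 640 counts, and Neurl2, which overlaps 6.87% of them, had 38 to 307 counts. Nelfcd, which overlaps 10 exon bases of Ctsz, had 79 to 871 counts. Fdft1, which overlaps 12.8% of those of Ctsb, had 108 to 1143 counts. On the same strand, the processed pseudogene Gm49230 lies within 6.09% of the exon length of Ctsl and was not analysed here. Cd74, the invariant chain that cathepsin S cuts, averaged 13.1 ± 10.6 CPM over the plasma-negative group and 14.3 ± 3.4 CPM over the plasma-positive group (SD, n = 4), and was not called (edgeR, adjusted p = 0.961). It was chosen after its values were seen.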
